A study of Homo sapiens and Mus musculus with 4 samples.

Results

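The messenger RNA of EL4, a mouse T-cell lymphoma line, was compared with that of IVA12, a mouse B-lineage hybridoma, over all mouse genes with an FPKM of at least 1 in either line. FPKM counts fragments scaled to gene length and to the size of the library, so levels can be compared between genes. The rule took 10801 of 27998 mouse genes, out of 60736 genes of 2 species in the table. Of these genes, 8604 reached 1 FPKM in both lines. A gene that reached it in 1 line entered through the line where it was higher, so counts and medians over the members are descriptions.

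The study sequenced 4 lymphocyte lines, 2 of them human, as bulk references for a mixture of the same lines in single-cell experiments. The EL4 and IVA12 groups carry no drug treatment, time point or engineered allele in the labels, and each is 1 library of an established line obtained from a cell repository. Per the study's methods, EL4 was grown in RPMI medium with 2-mercaptoethanol and IVA12 in DMEM, both with fetal bovine serum, so line and medium cannot be told apart. With 1 library per line there was no replicate, so no test was made, and intervals are 95% counting intervals, which leave out differences between cultures.

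T cells read antigen through a receptor whose CD3 chains carry signalling motifs, and they depend on cytokine and homing receptors for survival and position. A B cell that becomes an antibody-secreting cell instead enlarges its endoplasmic reticulum (ER), where immunoglobulin is folded, glycosylated and assembled before secretion. A hybridoma is a fusion of an antibody-secreting B cell with a myeloma line. The labels were checked with 4 marker genes. Thy1, a T-cell surface glycoprotein, had 586 FPKM in EL4 (579 to 592) and 0.228 FPKM in IVA12 (0.109 to 0.419). Cd3d, a CD3 chain, had 197 FPKM in EL4 (193 to 201) and 0.0299 FPKM in IVA12 (0.000757 to 0.167). Jchain, which joins immunoglobulin chains into polymers, had 0.148 FPKM in EL4 (0.0766 to 0.259) and 1289 FPKM in IVA12 (1281 to 1298). Mzb1, an ER cofactor of antibody assembly, had 0.172 FPKM in EL4 (0.0558 to 0.401) and 499 FPKM in IVA12 (490.3 to 509). All 4 markers lay on the side that the names of the lines give. Immunoglobulin and T-cell receptor segment genes were not analysed here.

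The libraries held 32149319 counts in EL4 and 25286728 in IVA12, of which 97.3% and 96.9% lay on mouse genes. A gene was taken as higher in a line when its (FPKM + 1) ratio passed 1.5-fold. On that rule 2568 members (23.8%) were higher in EL4 and 2866 (26.5%) in IVA12, and the counting interval of the ratio left out 1 for 5424 of these 5434 genes. In bulk samples fewer cells of a type and less RNA per cell cannot be told apart. The median log2 ratio of EL4 over IVA12 was -0.04, with quartiles at -0.63 and 0.54. A 4-fold difference was passed by 678 genes toward EL4 and 652 toward IVA12. Some genes were near absent from 1 line, since 513 members had at least 1 FPKM in EL4 and under 0.1 in IVA12, and 715 had the opposite pattern. Of these, 209 were listed at 0 in IVA12 and 402 at 0 in EL4.

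**Figure D1:**
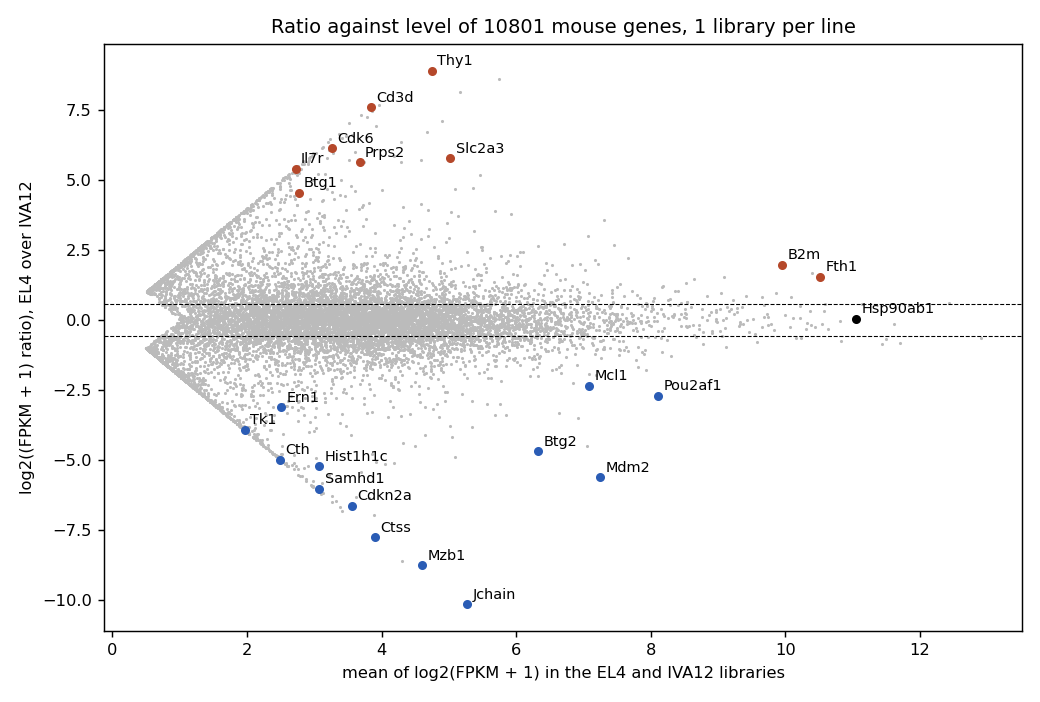
Each point is 1 of the 10801 members, with the mean log2(FPKM + 1) of both libraries on the horizontal axis and the log2 ratio of EL4 over IVA12 on the vertical axis. Dashed lines mark 1.5-fold, named genes are coloured by the line in which they were higher, and the points run from -10.13 (Jchain) to 8.90 (Thy1).

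The members were read by 44 functional gene lists and by 5 lists of markers of other cell types. Counts of genes past 1.5-fold in a list stand beside shares of 23.8% toward EL4 and 26.5% toward IVA12 over all members. Of the 44 functional lists, 12 had a median log2 ratio past 1.5-fold toward EL4, 11 toward IVA12 and 21 within that range. The medians of the lists of T-cell genes stood at the EL4 end and those of B-cell and plasma-cell genes at the IVA12 end. The lists between them included cell division, metabolism and housekeeping genes, in which single genes still differed by large amounts.

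**Figure D2:**
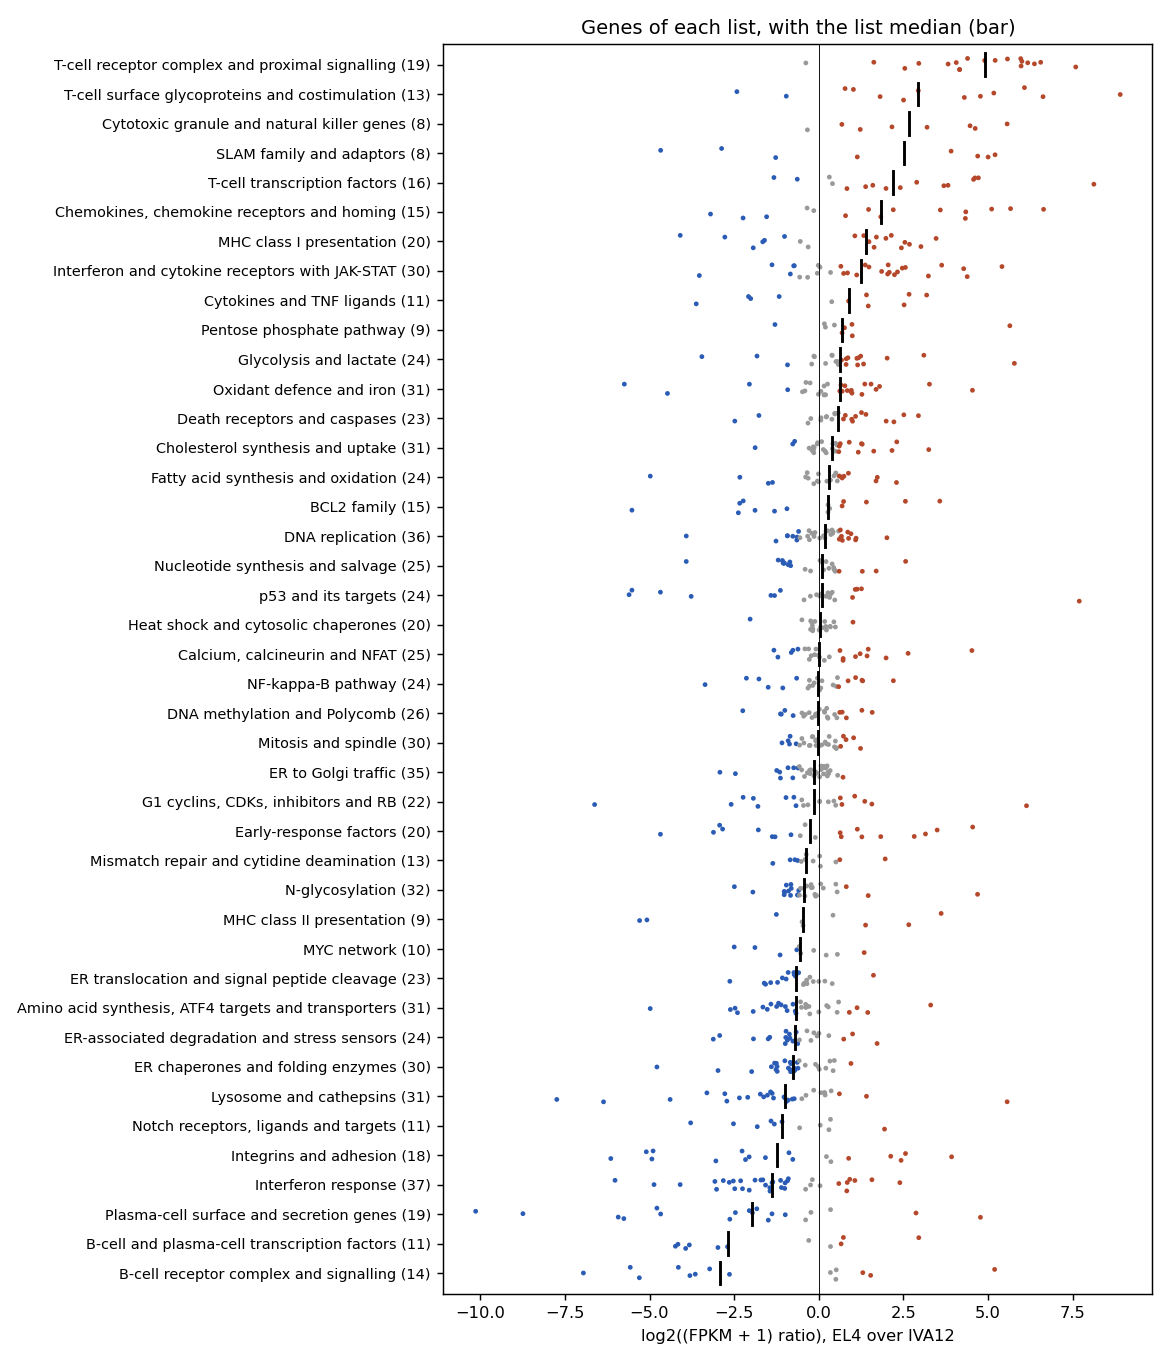
Each row is 1 functional list (the imprinted and sex-chromosome lists are left out) with its number of members, each point is a gene at its log2((FPKM + 1) ratio) of EL4 over IVA12, and the bar is the list median. Red points passed 1.5-fold toward EL4 and blue points toward IVA12, and the medians run from -2.93 for the B-cell receptor list to 4.90 for the T-cell receptor list.

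Antigen receptors of T and B cells signal through ITAMs, motifs with a pair of tyrosines that kinases phosphorylate. The coding bases of the ITAM are shown for CD3 chains of the T-cell receptor and for the CD79 chains of the B-cell receptor, because the CD3 chains and Cd79b divided the lines while Cd79a was near absent from both. Capitals mark the codons of the tyrosines and of the leucine or isoleucine that follows each of them. The bases come from GENCODE M21 transcripts, read 5′ to 3′ on the coding strand, with the gene's position on mm10.
Cd3e, chr9:44998740-45009627, minus strand: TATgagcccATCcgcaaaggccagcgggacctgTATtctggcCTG
Cd3d, chr9:44981786-44987339, plus strand: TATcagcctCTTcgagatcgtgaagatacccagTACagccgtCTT
Cd79b, chr11:106311341-106314762, minus strand: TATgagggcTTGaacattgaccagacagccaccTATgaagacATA
Cd79a, chr7:24897381-24902197, plus strand: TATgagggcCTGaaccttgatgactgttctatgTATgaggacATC
The pattern searched was a tyrosine, 2 residues, a leucine or isoleucine, and the same again after 6 to 12 residues, and 6.43% of members with a coding sequence held it. Members with the pattern had 26.3% toward EL4 and 25.1% toward IVA12, near the background given above, so the pattern alone did not divide the lines.

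The T-cell receptor list separated the lines most. Of its 19 members, 18 were higher in EL4 and 0 in IVA12, with a median log2 ratio of 4.90 against -0.04 for all members. This median was 1.62 among members that reached 1 FPKM in each line and 7.84 with a pseudocount of 0.01. Cd3e had 63.6 FPKM in EL4 against 0.0275 in IVA12, and Cd3g, another CD3 chain, had 176 FPKM in EL4 against 1.15 in IVA12. Kinases of the pathway were on the same side, with 96.5 against 0.527 FPKM for Lck and 47.8 against 0.0264 FPKM for Zap70 in EL4 against IVA12. The adaptor Lat, on which downstream signalling assembles, had 106 FPKM in EL4 against 0.143 in IVA12, a log2 ratio of 6.55. Cd247, which codes the zeta chain, was the lowest of the receptor chains in EL4, at 5.98 FPKM in EL4 against 0.20 in IVA12. Fyn, a Src-family kinase, was the member within 1.5-fold, at 16.4 FPKM in EL4 against 21.8 in IVA12. Prkcq, a protein kinase C of T cells, was listed at 0 in both lines.

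Surface and costimulatory genes of T cells were divided. Of 13 members, 11 were higher in EL4. Pdcd1, which codes the inhibitory receptor PD-1, had 116 FPKM in EL4 against 0.184 in IVA12, and Cd5, another restraint on receptor signalling, had 75.3 FPKM in EL4 against 0.134 in IVA12. Cd28, the main costimulatory receptor, had 59.9 FPKM in EL4 against 1.23 in IVA12. The 2 members on the other side were Cd6, an adhesion receptor, with 0.503 FPKM in EL4 against 7.04 in IVA12, and Tnfrsf18, which codes GITR, with 1.59 FPKM in EL4 against 4.05 in IVA12. Icos, Ctla4 and Lag3 stayed under 1 FPKM in both lines and were not members. Of the T-cell transcription factors, 12 of 16 members were higher in EL4, led by Tcf7, which codes TCF-1, with 597 FPKM in EL4 against 1.14 in IVA12. Gata3, a factor of T-helper 2 cells, had 25.7 FPKM in EL4 against 0.0199 in IVA12, Ikzf2 had 23.7 FPKM in EL4 against 0.0102 in IVA12, and Bcl11b, needed for T-lineage commitment, had 13.3 FPKM in EL4 against 0.0195 in IVA12. Nfatc1, a calcium-regulated factor, was higher in IVA12, at 0.494 FPKM in EL4 against 2.75 in IVA12, and so was Zbtb7b, at 4.55 FPKM in EL4 against 7.63 in IVA12. Foxp3, the factor of regulatory T cells, and Eomes were listed at 0 in both lines, and Satb1, a chromatin organiser of thymocytes, was listed at 0 in EL4 and at 0.84 FPKM in IVA12.

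The Notch list did not follow the T-cell lists. Notch1, the receptor that directs progenitors to the T lineage, had 0.0131 FPKM in EL4 against 13 in IVA12. The ligand Jag2 had 0.767 FPKM in EL4 against 9.14 in IVA12, and the target gene Hes1 had 0.0763 FPKM in EL4 against 2.8 in IVA12. Of 11 members 6 were higher in IVA12 and 1 in EL4, with a median log2 ratio of -1.09. The gene on the EL4 side was Rbpj, which codes the DNA-binding partner of Notch, at 8.82 FPKM in EL4 against 1.56 in IVA12. Notch2 was within 1.5-fold, at 7.95 FPKM in EL4 against 6.28 in IVA12. The median was 0.17 among members that reached 1 FPKM in each line.

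Cytotoxic and SLAM-family genes were held in part by EL4. Of the cytotoxic list, 8 of 24 genes were members, 7 higher in EL4 and 0 in IVA12. The median log2 ratio of 2.68 was 0.95 among members that reached 1 FPKM in each line. It was 0.047 with any FPKM above 0, so the side of this list rests on which genes passed the floor. Fcer1g, an ITAM adaptor of Fc receptors, was at 23.6 FPKM in EL4 and listed at 0 in IVA12, and Srgn, the proteoglycan of granules, had 56.6 FPKM in EL4 against 23.7 in IVA12. Gzmb, a granzyme, was at 8.16 FPKM in EL4 and listed at 0 in IVA12, whereas Prf1, which codes perforin, had 0.0151 FPKM in EL4 against 0.674 in IVA12 and was not a member. The SLAM list had 5 members higher in EL4 and 3 higher in IVA12. Ly9 (SLAMF3) had 36.3 FPKM in EL4 against 0.012 in IVA12 and the adaptor gene Sh2d2a had 32.2 FPKM in EL4 against 0.040 in IVA12. Slamf7, a surface protein of plasma cells, had 0.0068 FPKM in EL4 against 24.7 in IVA12, and Slamf9 had 10.3 FPKM in EL4 against 81.9 in IVA12. The family was therefore split by gene, with no member within 1.5-fold. Its median of 2.52 became -2.87 among members that reached 1 FPKM in each line, which is the value of Slamf9 alone.

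On the B-cell side the receptor list had 14 members of 25 genes, 8 of them higher in IVA12 and 3 in EL4. Cd79b had 0.326 FPKM in EL4 against 163 in IVA12, while its partner Cd79a had 0.149 FPKM in EL4 against 0.0543 in IVA12 and was not a member. Ms4a1, which codes CD20, was listed at 0 in EL4 and at 46.5 FPKM in IVA12. Blnk, the adaptor below the B-cell receptor, had 0.0312 FPKM in EL4 against 39.6 in IVA12, and the kinases Syk and Lyn were listed at 0 in EL4 and at 13 and 8.34 FPKM in IVA12. Cr2 and Cd72, surface proteins of mature B cells, were under 0.1 FPKM in both lines. Ptpn6, which codes the phosphatase SHP-1, was on the EL4 side, at 266 FPKM in EL4 against 6.31 in IVA12, with Cd180, at 13.2 FPKM in EL4 against 3.92 in IVA12, and Cd22, at 1.75 FPKM in EL4 against 0.119 in IVA12. Plcg2, the phospholipase best known below the B-cell receptor, had 80.8 FPKM in EL4 against 56.2 in IVA12, a difference under 1.5-fold. The list median was -2.93 but 0.51 among members that reached 1 FPKM in each line, since its IVA12 side rests on genes near absent from EL4.

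Factors that direct a B cell to secretion include Prdm1, Irf4 and Xbp1, which were higher in IVA12. Prdm1, which codes BLIMP-1, had 0.30 FPKM in EL4 against 18.9 in IVA12. Irf4 had 9.73 FPKM in EL4 against 151 in IVA12, and Xbp1, the factor that builds the secretory apparatus, had 15.9 FPKM in EL4 against 133 in IVA12. Pou2af1, an octamer-factor coactivator, was high in both, at 107 FPKM in EL4 against 699.9 in IVA12. The largest ratios were those of Spi1, which codes PU.1, with 0.0115 FPKM in EL4 against 18 in IVA12, and Mef2c, with 0.00396 FPKM in EL4 against 16.9 in IVA12. Pax5, Ebf1, Bcl6 and Bach2, which hold the B-cell state before secretion, were under 1 FPKM in both lines. Toward EL4 lay Ikzf3, at 19.3 FPKM in EL4 against 1.62 in IVA12, Spib, at 2.61 FPKM in EL4 against 1.19 in IVA12, and Pou2f2, at 18.2 FPKM in EL4 against 11.2 in IVA12, so 6 of 11 members were higher in IVA12 and 3 in EL4. Their median of -2.70 was 0.024 among members that reached 1 FPKM in each line.

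Of the plasma-cell surface and secretion list, 14 of 19 members were higher in IVA12. Besides Jchain and Mzb1, Sdc1, which codes the plasma-cell marker syndecan-1 (CD138), had 0.00817 FPKM in EL4 against 60.2 in IVA12, and Ell2, an elongation factor that favours secretory immunoglobulin messages, had 0.0682 FPKM in EL4 against 56.8 in IVA12. Tnfrsf17, which codes the survival receptor BCMA, was listed at 0 in EL4 and at 3.15 FPKM in IVA12, and Tnfrsf13b, which codes its relative TACI, had 13 FPKM in EL4 against 48.9 in IVA12. The members toward EL4 were Cd28 and Cd93, the latter with 6.48 FPKM in EL4 against 0.0237 in IVA12. TACI message was thus also present in the T-cell line, at the level given.

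The ER keeps its soluble residents by a carboxy-terminal retrieval signal, usually KDEL, that a Golgi receptor recognises. The last 10 codons and the stop codon are shown for residents that end in KDEL or HDEL. Pdia4 and Pdia3 follow, whose ends code KEEL and QEDL. The search given below did not count these ends, and whether they act as retrieval signals was not tested. Capitals mark the last 4 codons. The bases are from the same GENCODE M21 transcripts and strand as above.
Hspa5, chr2:34771970-34777547, plus strand: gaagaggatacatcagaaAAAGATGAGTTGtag
Hsp90b1, chr10:86690209-86705509, minus strand: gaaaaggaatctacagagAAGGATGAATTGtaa
P4hb, chr11:120560298-120573253, minus strand: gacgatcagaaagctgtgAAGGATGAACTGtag
Sdf2l1, chr16:17130138-17132383, minus strand: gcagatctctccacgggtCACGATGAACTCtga
Pdia4, chr6:47796141-47813430, minus strand: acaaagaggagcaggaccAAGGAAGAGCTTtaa
Pdia3, chr2:121413775-121438687, plus strand: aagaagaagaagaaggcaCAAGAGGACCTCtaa
A search of all coding sequences for an end of KDEL, HDEL or RDEL found 28 genes of the table, of which 20 were members. Of these 20 members, 14 (70.0%) were higher in IVA12 and 2 in EL4, with a median log2 ratio of -0.69, and 9 of the 20 were also on the list of ER chaperones. The 2 on the EL4 side were Rcn1, a calcium-binding protein, with 16.3 FPKM in EL4 against 3.01 in IVA12, and Pcmt1, a repair methyltransferase, with 23.5 FPKM in EL4 against 13.2 in IVA12.

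ER folding genes were expressed in both lines and were higher in IVA12 by modest amounts. All 30 listed chaperones and folding enzymes were members, 20 were higher in IVA12 and 1 in EL4, and the median log2 ratio was -0.77. Their summed level was 2351 FPKM in EL4 and 3909 FPKM in IVA12. Hsp90b1, the ER member of the HSP90 family, was the highest, at 435 FPKM in EL4 against 651 in IVA12, and Hspa5, which codes BiP, had 228 FPKM in EL4 against 355 in IVA12. P4hb, a disulfide isomerase, had 120.0 FPKM in EL4 against 283 in IVA12. Fkbp11, a prolyl isomerase of secretory cells, had 0.0851 FPKM in EL4 against 28.8 in IVA12, a log2 ratio of -4.78, and Erp29 had 9.11 FPKM in EL4 against 78.6 in IVA12, with -2.98. The next largest difference, that of Creld2, was 39.1 against 157 FPKM. Dnajc3, a co-chaperone that restrains the ER stress kinase PERK, went the other way, at 26.4 FPKM in EL4 against 13.2 in IVA12, and Pdia3, the isomerase of glycoprotein folding, was within 1.5-fold, at 230.3 FPKM in EL4 against 172 in IVA12.

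**Figure D3:**
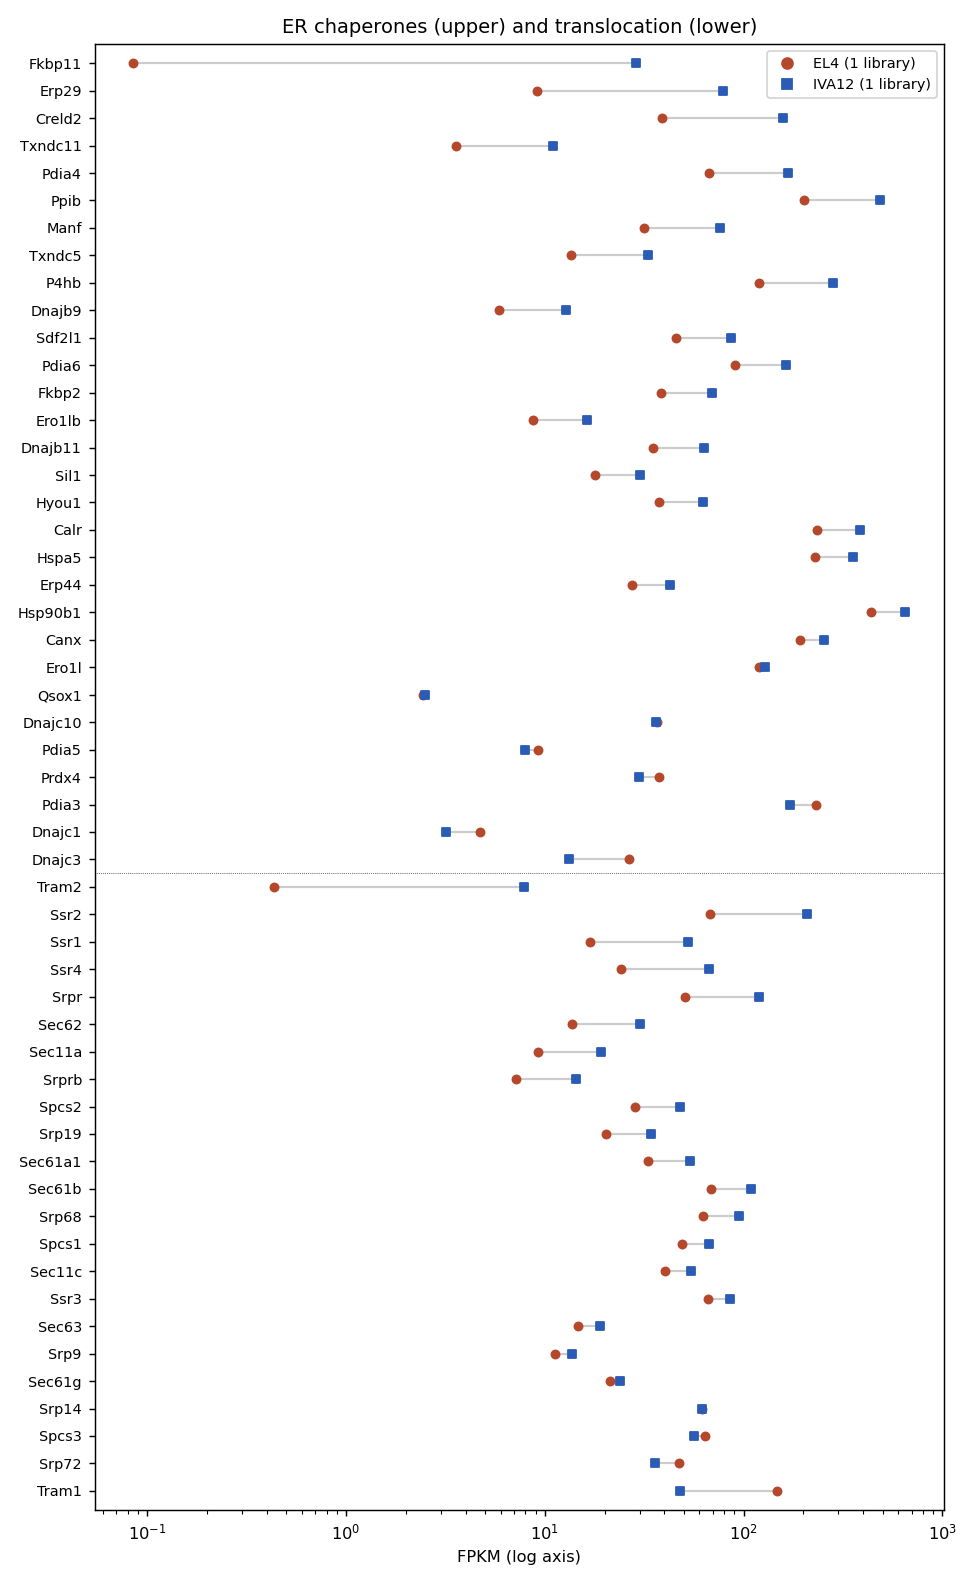
FPKM of each member (log axis) of the ER chaperone list above the dotted line and of the ER translocation list below it, with a circle for EL4 and a square for IVA12. Most squares lie to the right of their circles, by under 4-fold except for Fkbp11, Erp29, Creld2 and Tram2, and Tram1 and Dnajc3 lie most clearly the other way.

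Proteins enter the ER through the Sec61 channel and its partners. Of 23 translocation genes, 13 were higher in IVA12 and 1 in EL4, with a median log2 ratio of -0.66. The translocon-associated genes Ssr2, Ssr1 and Ssr4 had 67.5 against 208 FPKM, 16.9 against 52.4 FPKM and 24.3 against 66.7 FPKM in EL4 against IVA12, while Ssr3 of the same complex had 66.6 against 85.8 FPKM, within 1.5-fold. The paralogs of the channel partner TRAM lay in opposite directions. Tram1 had 148 FPKM in EL4 against 47.8 in IVA12, and Tram2 had 0.434 FPKM in EL4 against 7.87 in IVA12. N-glycosylation genes were higher in IVA12 in 13 of 32 cases (40.6%) and in EL4 in 3 (9.4%), against 26.5% and 23.8% of all members. Mgat1, which starts complex-glycan synthesis in the Golgi, had 7.06 FPKM in EL4 against 44.4 in IVA12. Rpn2, an oligosaccharyltransferase subunit, had 73.3 FPKM in EL4 against 286 in IVA12. Tusc3, an alternative subunit of the same transferase, was far higher in EL4, at 27.5 FPKM in EL4 against 0.105 in IVA12, whereas its paralog Magt1 had 26.6 FPKM in EL4 against 48.3 in IVA12.

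ER stress and degradation genes had a median log2 ratio of -0.72, with 14 of 24 members higher in IVA12. Of the 3 stress sensors, Ern1, which codes IRE1 and splices the Xbp1 message, had 0.936 FPKM in EL4 against 15.8 in IVA12, Atf6 had 44.1 FPKM in EL4 against 21.6 in IVA12, and Eif2ak3, which codes PERK, had 13.1 FPKM in EL4 against 17 in IVA12. The sensors therefore differed in direction, with Ern1 higher in IVA12, Atf6 higher in EL4 and Eif2ak3 within 1.5-fold. Edem2, which marks misfolded glycoproteins for degradation, had 7.63 FPKM in EL4 against 64.6 in IVA12. Transport from ER to Golgi differed least of the secretory lists, with 25 of 35 members within 1.5-fold and a median log2 ratio of -0.14. Kdelr3, a KDEL receptor, had the largest ratio of the list, at 0.044 FPKM in EL4 against 6.91 in IVA12, beside Kdelr1 at 36.8 FPKM in EL4 against 44.2 in IVA12 and Kdelr2 at 38 FPKM in EL4 against 48.3 in IVA12.

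Lysosomal genes lay toward IVA12 by more than the ER lists. Of 31 members 20 were higher in IVA12 and 3 in EL4, with a median log2 ratio of -1.0, and the summed level was 729.8 FPKM in EL4 and 1879 FPKM in IVA12. Ctss, a cathepsin that trims the invariant chain, had 0.0229 FPKM in EL4 against 217 in IVA12, and Lgmn, an asparaginyl protease, had 0.549 FPKM in EL4 against 126 in IVA12. Ctsz had 30.7 FPKM in EL4 against 312 in IVA12, and Ctsa had 0.0198 FPKM in EL4 against 20.4 in IVA12. Cst7, which codes the cathepsin inhibitor cystatin F, was on the EL4 side, at 48.1 FPKM in EL4 against 0.0401 in IVA12.

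Class I MHC molecules present peptides made by the proteasome, and the list leaned toward EL4. Of 20 members, 12 were higher in EL4 and 6 in IVA12, with a median log2 ratio of 1.40 that was 0.51 when genes overlapping another gene were left out. B2m, the shared light chain, had 1972 FPKM in EL4 against 499 in IVA12, and the heavy chains H2-K1 and H2-D1 had 443 against 68.4 FPKM and 381 against 46.2 FPKM. The transporter gene Tap2 had 53.8 FPKM in EL4 against 8.41 in IVA12 and the class I activator Nlrc5 had 18.3 FPKM in EL4 against 3.38 in IVA12. The immunoproteasome subunits Psmb8 and Psmb9 had 75.1 against 23.6 FPKM and 35.1 against 10.1 FPKM, Psmb10 was within 1.5-fold, at 31.6 against 39.6 FPKM, whereas Psme1 and Psme2, which code the PA28 activator, had 57.2 against 176 FPKM and 55.3 against 176 FPKM in EL4 against IVA12. H2-Q7 had 27.3 FPKM in EL4 against 1.57 in IVA12 and H2-Q6 had 0.0746 FPKM in EL4 against 17.3 in IVA12. H2 heavy-chain genes are near-identical copies that differ between mouse strains, the reference is that of C57BL/6, and the strains of the lines are not given in the sources used here, so values of single H2 genes are uncertain.

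Class II genes did not lie on 1 side. Of 15 genes 9 were members, 3 higher in each line. Cd74, the invariant chain, had 0.154 FPKM in EL4 against 44.3 in IVA12, and Ifi30, a thiol reductase of the endosome, had 1.59 FPKM in EL4 against 86.3 in IVA12. H2-Eb2 had 11.9 FPKM in EL4 against 0.0537 in IVA12 and H2-Oa was at 5.3 FPKM in EL4 and listed at 0 in IVA12. The chains of the I-A molecule, H2-Aa and H2-Ab1, and their activator Ciita were under 1 FPKM in both lines.

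Interferon-response genes lay toward IVA12. Of 37 members 26 were higher in IVA12 and 7 in EL4, with a median log2 ratio of -1.38. Samhd1, which breaks down deoxynucleotides, had 0.0476 FPKM in EL4 against 66.9 in IVA12, and Ifi44 was listed at 0 in EL4 and at 28.2 FPKM in IVA12. Isg15, a ubiquitin-like modifier, had 1.81 FPKM in EL4 against 47 in IVA12, and the factors Irf7 and Irf9 had 0.371 against 10.1 FPKM and 1.09 against 16.6 FPKM in EL4 against IVA12. Bst2, which codes tetherin, was the highest of the list, at 95 FPKM in EL4 against 245 in IVA12. Cmpk2, a mitochondrial nucleotide kinase, was at 4.25 FPKM in EL4 and listed at 0 in IVA12, and Parp12 had 8.98 FPKM in EL4 against 2.37 in IVA12, both on the EL4 side. The receptor genes Ifnar1 and Ifnar2 were near equal, with 9.17 against 9.3 FPKM and 7.14 against 7.4 FPKM. The interferon gamma receptor gene Ifngr1 was on the EL4 side, at 78.9 FPKM in EL4 against 7.49 in IVA12.

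Of cytokine receptors and their JAK-STAT partners, 19 of 30 members were higher in EL4 and 5 in IVA12, at a median log2 ratio of 1.24, which was 0.35 among members that reached 1 FPKM in each line. Il7r, the receptor chain for a T-cell survival cytokine, had 42 FPKM in EL4 against 0.0123 in IVA12. Il27ra had 20.8 FPKM in EL4 against 0.0447 in IVA12, Il9r had 19 FPKM in EL4 against 0.032 in IVA12, and Il18r1 had 11.6 FPKM in EL4 against 0.0164 in IVA12. The common gamma chain Il2rg had 26 FPKM in EL4 against 5.6 in IVA12 and the kinase Jak1 had 38.5 FPKM in EL4 against 8.33 in IVA12, so these shared parts were present in both lines at different levels. Jak3, the partner of the gamma chain, was on the other side, at 9.61 FPKM in EL4 against 18 in IVA12. Socs3, a feedback inhibitor, had 0.161 FPKM in EL4 against 12.4 in IVA12, while Socs1 had 5.99 FPKM in EL4 against 0.486 in IVA12. Il6ra, the receptor for a plasma-cell growth factor, had 1.24 FPKM in EL4 against 4.85 in IVA12, and its signalling partner Il6st had 16.2 FPKM in EL4 against 12.5 in IVA12. Among cytokines, 6 members were higher in EL4 and 4 in IVA12. Il10, an inhibitory cytokine, had 1.19 FPKM in EL4 against 25.9 in IVA12, and Ltb had 0.164 FPKM in EL4 against 3.91 in IVA12. Tgfb1 had 20.1 FPKM in EL4 against 1.32 in IVA12, Il17a was at 4.73 FPKM in EL4 and listed at 0 in IVA12, and Tnfsf11, which codes RANKL, was at 5.34 FPKM in EL4 and listed at 0 in IVA12. Il2, Ifng and Il4 stayed under 1 FPKM in both lines.

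Homing receptors divided by gene. Of 15 members of the chemokine and homing list, 10 were higher in EL4 and 3 in IVA12. The sphingosine phosphate receptors, which guide exit from tissues, differed, since S1pr5 had 102 FPKM in EL4 against 0.0316 in IVA12, S1pr1 was listed at 0 in EL4 and at 8.18 FPKM in IVA12, and S1pr2 had 18 FPKM in EL4 against 23.2 in IVA12. Ccr9, a receptor for gut and thymus homing, was at 49.6 FPKM in EL4 and listed at 0 in IVA12, and Ccr4 had 33.9 FPKM in EL4 against 0.0142 in IVA12. Ccr10, found on antibody-secreting cells of mucosa, had 1.06 FPKM in EL4 against 8.73 in IVA12. Cxcr4, the bone-marrow homing receptor, was the highest of the list in its mean level and near equal, at 67.8 FPKM in EL4 against 75.3 in IVA12. Selplg, which codes the selectin ligand PSGL-1 and belongs to the adhesion list below, had 0.0364 FPKM in EL4 against 29.8 in IVA12. The homing median of 1.83 was -0.35 among members that reached 1 FPKM in each line.

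**Figure D4:**
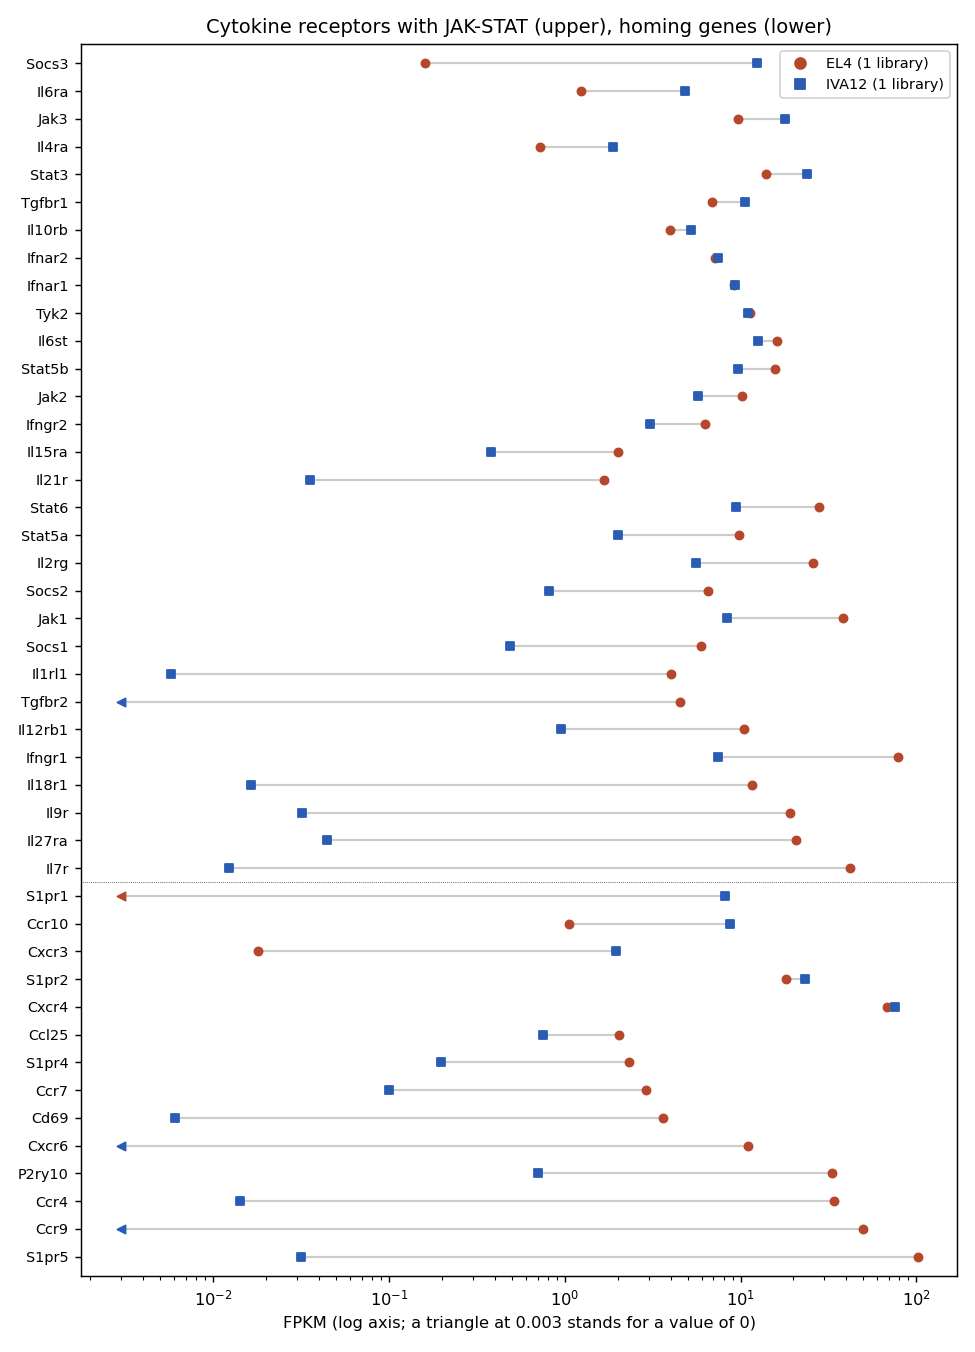
FPKM (log axis) of the members of the cytokine receptor list above the dotted line and of the homing list below it, with a circle for EL4, a square for IVA12 and a triangle for a value of 0 (1 homing gene is not shown). Receptors such as Il7r and S1pr5 were near absent from IVA12, while Ifnar1, Ifnar2, Tyk2 and Cxcr4 overlap closely.

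Of 18 members of the adhesion list 11 were higher in IVA12 and 5 in EL4. Itgb1, the beta-1 chain, had 0.0229 FPKM in EL4 against 34 in IVA12, and Itga4, one of its partners, had 0.0089 FPKM in EL4 against 7.3 in IVA12. Itgb2, the leukocyte beta-2 chain, had 66.6 FPKM in EL4 against 14.5 in IVA12, and its partner Itgal had 46.3 FPKM in EL4 against 7.03 in IVA12. Cd44, the hyaluronan receptor, had 22.4 FPKM in EL4 against 96.5 in IVA12, and the tetraspanins Cd82 and Cd81 had opposite patterns, at 20.7 against 0.434 FPKM and 0.475 against 44 FPKM in EL4 against IVA12. Epcam, an epithelial adhesion molecule, was listed at 0 in EL4 and at 69.7 FPKM in IVA12. The adhesion median of -1.23 was 0.23 among members that reached 1 FPKM in each line.

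NF-kB genes had a median of -0.01, and calcium genes had one of 0.02 that was 0.32 with a floor of 5 FPKM and 0.72 without overlapping genes. The NF-kB list had 6 members higher in EL4 and 6 in IVA12, with Rela at 18.8 FPKM in EL4 against 20.8 in IVA12 and Rel at 5.35 FPKM in EL4 against 5.25 in IVA12. Bcl3, a nuclear IkB protein, had 0.0628 FPKM in EL4 against 9.91 in IVA12, and Nfkbie, another inhibitor, had 6.15 FPKM in EL4 against 0.555 in IVA12. Of 25 calcium and NFAT genes 10 were higher in EL4 and 5 in IVA12, led by the kinase gene Camk4 with 22.3 FPKM in EL4 against 0.016 in IVA12 and the channel gene Itpr2 with 15.8 FPKM in EL4 against 1.71 in IVA12. Early-response genes were split, with 9 toward EL4 and 8 toward IVA12, and their median of -0.25 was 0.90 without overlapping genes. The antiproliferative paralogs Btg1 and Btg2 were opposite, at 31.9 FPKM in EL4 against 0.41 in IVA12 for Btg1 and 14.9 FPKM in EL4 against 405 in IVA12 for Btg2. Nr4a1, induced by antigen-receptor signals, had 11 FPKM in EL4 against 0.0639 in IVA12, and its paralog Nr4a2 was listed at 0 in EL4 and at 6.17 FPKM in IVA12. Zfp36, which destabilises AU-rich messages, had 1.37 FPKM in EL4 against 19.5 in IVA12. Myc had 51.9 FPKM in EL4 against 195 in IVA12 and its partner Max had 43.6 FPKM in EL4 against 29.5 in IVA12, with Mxd4, a repressive partner of Max, at 1.08 FPKM in EL4 against 10.7 in IVA12.

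Most mitosis genes had similar levels in both lines, while some G1 regulators differed by large amounts. Of 30 mitosis genes 20 were within 1.5-fold, and the summed level was 1786 FPKM in EL4 and 1778 FPKM in IVA12. Of 36 DNA replication genes 11 (30.6%) were higher in EL4 and 8 (22.2%) in IVA12, not far from the 23.8% and 26.5% of all members. Pcna, the sliding clamp, had 236 FPKM in EL4 against 122 in IVA12. Among G1 regulators, Cdk6 had 79.5 FPKM in EL4 against 0.147 in IVA12, whereas its paralog Cdk4 had 86.2 FPKM in EL4 against 108 in IVA12. Cdkn2a, the locus of INK4A and ARF, had 0.186 FPKM in EL4 against 116 in IVA12, and the neighbouring Cdkn2b had 12.6 FPKM in EL4 against 3.61 in IVA12. Ccnd2 was the highest cyclin of the list, at 51.7 FPKM in EL4 against 247 in IVA12, and Ccne2 had 2.87 FPKM in EL4 against 22.3 in IVA12. Tk1, which salvages thymidine, had 0.00598 FPKM in EL4 against 14.2 in IVA12.

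Replication-dependent histone messages end in a stem-loop instead of a poly(A) tail, and the libraries were prepared with a messenger RNA kit. The stem-loop of 4 histone genes is shown because the longest run of neighbouring genes described further on is made mostly of this family, with the loop in capitals, from GENCODE M21 transcripts downstream of the stop codon.
Hist1h1c, chr13:23738808-23740367, plus strand: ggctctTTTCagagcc
Hist1h4i, chr13:22040636-22041362, minus strand: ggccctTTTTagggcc
Hist1h2bg, chr13:23571396-23572013, plus strand: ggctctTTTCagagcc
Hist1h3g, chr13:23535422-23535951, plus strand: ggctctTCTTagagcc
Of the 28 Hist members, Hist1h4i was the one that reached 1 FPKM in EL4, and the others entered through IVA12 alone, so their direction follows from the rule. The count of 26 (92.9%) higher in IVA12 and 0 in EL4 and the median log2 ratio of -1.25 are therefore descriptions from which nothing is read. Their summed level was 11.4 FPKM in EL4 and 158 FPKM in IVA12. Hist1h1c, a linker histone, had 0.379 FPKM in EL4 against 50.5 in IVA12, Hist1h2bc had 0.127 FPKM in EL4 against 20.5 in IVA12, and Hist1h4i had 4.49 FPKM in EL4 against 19.1 in IVA12. A further 38 Hist genes of the table were below 1 FPKM in both lines. The sequence pattern of the stem-loop was found downstream of the stop codon in 23 members, of which 20 were Hist genes and 21 were higher in IVA12. It was found in 0.227% of all genes with a coding sequence. The 3 members outside Hist were H2afx, Klf7 and Syncrip. A match of the pattern does not show that the message ends in a stem-loop. Histone genes are near-identical copies, so single values are uncertain.

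The p53 gene had similar levels in both lines, but some of its targets did not. Trp53 had 50.1 FPKM in EL4 against 48.1 in IVA12, and Cdkn1a, the target that halts the cycle, had 15.9 FPKM in EL4 against 15.6 in IVA12. Mdm2, the ubiquitin ligase that degrades p53, had 20.7 FPKM in EL4 (19.7 to 21.7) and 1054 FPKM in IVA12 (1046 to 1062). The Mdm2 ratio of IVA12 over EL4 was 50.9, with a counting interval of 48.5 to 53.5. Pmaip1, which codes the death activator NOXA, had 0.376 FPKM in EL4 against 62.1 in IVA12, and Trp53inp1 had 7.74 FPKM in EL4 against 118 in IVA12. Perp, a target in desmosomes, was the largest difference the other way, at 223 FPKM in EL4 against 0.0832 in IVA12, and Fas had 2.97 FPKM in EL4 against 0.659 in IVA12. The whole list had 5 members toward EL4, 7 toward IVA12 and a median log2 ratio of 0.08.

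The BCL2 family was exchanged in its survival members. Bcl2 had 17.6 FPKM in EL4 against 0.566 in IVA12. Mcl1, on which plasma cells depend, had 59.3 FPKM in EL4 against 303 in IVA12, and Bcl2l1, which codes BCL-XL, had 1.51 FPKM in EL4 against 10.8 in IVA12. Of the death activators, Bcl2l11 (BIM) had 3.0 FPKM in EL4 against 13.8 in IVA12, and Bik was listed at 0 in EL4 and at 4.19 FPKM in IVA12. Bax and Bad were within 1.5-fold. Caspases and death receptors were higher in EL4 in 11 of 23 members, with Casp1, the inflammatory caspase, at 88.1 FPKM in EL4 against 10.6 in IVA12 and Casp4 at 14.4 FPKM in EL4 against 1.69 in IVA12. Tnfrsf1b, which codes TNF receptor 2, had 0.611 FPKM in EL4 against 8.0 in IVA12.

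Glucose metabolism lay toward EL4. Of 24 glycolysis genes 12 were higher in EL4 and 3 in IVA12, with a median log2 ratio of 0.62. The glucose transporter Slc2a3 had 239 FPKM in EL4 against 3.38 in IVA12, whereas Slc2a1 had 31.3 FPKM in EL4 against 34.3 in IVA12. Hk1, a hexokinase, had 42.6 FPKM in EL4 against 4.08 in IVA12, while Pkm, the highest gene of the list, had 839 FPKM in EL4 against 928 in IVA12. Txnip, a brake on glucose uptake, had 7.72 FPKM in EL4 against 94.5 in IVA12. In the pentose phosphate list 5 of 9 members were higher in EL4. The largest difference was that of Prps2, which makes phosphoribosyl pyrophosphate, with 89.1 FPKM in EL4 against 0.807 in IVA12, beside its paralog Prps1 with 72.4 FPKM in EL4 against 64.6 in IVA12.

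Of 31 sterol genes 11 (35.5%) were higher in EL4 and 3 (9.7%) in IVA12, against 23.8% and 26.5% of all members. Hmgcs1, an early enzyme of the pathway, had 74.3 FPKM in EL4 against 23.5 in IVA12, and Soat1, which esterifies cholesterol, had 23.1 FPKM in EL4 against 1.53 in IVA12. Abca1, a sterol exporter, was listed at 0 in EL4 and at 2.68 FPKM in IVA12. Among fatty acid desaturases, Scd1 had 62 FPKM in EL4 against 11.9 in IVA12, Fads2 was listed at 0 in EL4 and at 30.5 FPKM in IVA12, and Fads1 was near equal, at 30.5 FPKM in EL4 against 30.7 in IVA12. Cpt1a, the entry step of fatty acid oxidation, had 43.3 FPKM in EL4 against 12.4 in IVA12, and Fabp5 had 6.82 FPKM in EL4 against 38.4 in IVA12.

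Amino acid genes and targets of the stress factor ATF4 lay toward IVA12, with 16 of 31 members higher there, 4 higher in EL4 and a median log2 ratio of -0.67. Cth, which makes cysteine, was listed at 0 in EL4 and at 30.5 FPKM in IVA12. Psph, the last step of serine synthesis, had 6.78 FPKM in EL4 against 40.1 in IVA12, whereas the earlier steps Phgdh and Psat1 were within 1.5-fold, at 195 against 166 FPKM and 181 against 181 FPKM. Trib3 had 7.03 FPKM in EL4 against 24.2 in IVA12 and Chac1 had 3.63 FPKM in EL4 against 24.7 in IVA12. Asns, another ATF4 target, was within 1.5-fold, at 274 FPKM in EL4 against 182 in IVA12, and the glutamine transporter Slc38a1 had 62.5 FPKM in EL4 against 5.43 in IVA12.

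Nucleotide synthesis had 9 members toward IVA12 and 4 toward EL4. Impdh2, the rate-limiting enzyme of guanine nucleotide synthesis, had 76.4 FPKM in EL4 against 177 in IVA12. The CTP synthase paralogs were exchanged, with Ctps at 55.3 FPKM in EL4 against 104 in IVA12 and Ctps2 at 18.8 FPKM in EL4 against 2.35 in IVA12. Hprt, the purine salvage gene, was present in both lines, at 206 FPKM in EL4 against 84 in IVA12, and Ada had 51.7 FPKM in EL4 against 15.3 in IVA12. Oxidant defence and iron storage lay toward EL4 in 16 of 31 members. Fth1 and Ftl1, the ferritin chains, had 2491 against 855 FPKM and 2407 against 745 FPKM, and Nqo1, a quinone reductase, had 32.2 FPKM in EL4 against 0.433 in IVA12. The glutathione transferases were divided, since Gstm1 had 10.2 FPKM in EL4 against 0.161 in IVA12, and Gsto1 and Gsta4 were listed at 0 in EL4 and at 52.6 and 21.2 FPKM in IVA12.

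Heat shock genes and cytosolic chaperones were the list with the largest share of members within 1.5-fold. Of 20 members 18 were within 1.5-fold, with a median log2 ratio of 0.03 and summed levels of 5666 and 5676 FPKM. Hsp90ab1, the constitutive HSP90, had 2155 FPKM in EL4 against 2081 in IVA12. It was also the first of the 10 highest genes whose ratio lay within 1.1-fold, which further included Ptma, with 1771 FPKM in EL4 against 1826 in IVA12, the elongation factor Eef2, with 1427 FPKM in EL4 against 1558 in IVA12, and the ribosomal genes Rps4x, Rpsa, Rpl13a and Rpl7a. Hspa1a and Hspa1b, the inducible HSP70 genes, were listed at 0 in both lines. How reads that match several genes were counted is not given in the sources used here, so these values are uncertain. Polycomb and DNA methylation genes had 5 members in each direction and 16 within 1.5-fold. Dnmt3b, a methyltransferase, had 7.94 FPKM in EL4 against 2.0 in IVA12, and Jarid2, a cofactor of Polycomb complex 2, had 1.27 FPKM in EL4 against 9.76 in IVA12. In the list of mismatch repair and deaminases, Apobec3 had 32.3 FPKM in EL4 against 7.55 in IVA12.

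Imprinted genes and sex-chromosome genes were mostly low. Of 23 imprinted genes 9 were members, with Peg10 at 0.00467 FPKM in EL4 against 5.4 in IVA12, Igf2r at 37.5 FPKM in EL4 against 9.73 in IVA12, and Impact at 28.5 FPKM in EL4 against 2.41 in IVA12. Airn, an antisense RNA of the Igf2r locus, was at 2.89 FPKM in EL4 and listed at 0 in IVA12. Of 14 listed sex-chromosome genes 4 were members, all X-linked, and the Y-linked genes Ddx3y, Uty, Kdm5d and Eif2s3y were under 0.1 FPKM in both lines, as was Xist. Ddx3x had 484 FPKM in EL4 against 235 in IVA12.

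Grouping the members by the letters of the symbol gave 125 families of at least 10 members. The highest medians were those of the H2 genes (1.77, 16 members), the interleukins and their receptors named Il (1.41, 29 members) and the Rgs regulators of G-protein signalling (1.30, 10 members). Rgs13 was at 40.5 FPKM in EL4 and listed at 0 in IVA12, and Rgs18 was at 10.1 FPKM in EL4 and listed at 0 in IVA12. They were followed by the G-protein-coupled receptors named Gpr (0.77), the Dock exchange factors (0.57) and the septins (0.51), in which Gpr171 was at 44.4 FPKM in EL4 and listed at 0 in IVA12, Dock8 had 30.3 FPKM in EL4 against 1.39 in IVA12, and Sept14 was at 25.5 FPKM in EL4 and listed at 0 in IVA12. Among H2 genes, H2-Q2 had 138 FPKM in EL4 against 1.38 in IVA12, and H2-T24 was listed at 0 in EL4 and at 58.2 FPKM in IVA12. Il17f, an interleukin not on the lists above, was at 9.66 FPKM in EL4 and listed at 0 in IVA12, and Il13ra1 had 0.159 FPKM in EL4 against 8.06 in IVA12.

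At the other end stood 12 genes named only by a sequenced clone, whose symbols begin with AC (-1.45), then the interferon regulatory factors Irf (-1.33), the Hist genes (-1.25), the lymphocyte antigens Ly (-0.84), the Parp enzymes (-0.60) and the Integrator subunits Ints (-0.56). Irf5 had 0.0214 FPKM in EL4 against 7.57 in IVA12, and Ly86, which codes MD-1, had 0.0312 FPKM in EL4 against 73.1 in IVA12. Cd180, whose protein pairs with MD-1, lay toward EL4 as given above. Ints6 had 4.19 FPKM in EL4 against 25.4 in IVA12, and 7 of 15 Ints members were higher in IVA12 against 0 in EL4. The mitochondrial ribosomal family Mrpl was chosen after its values were seen. It had 17 of 48 members (35.4%) higher in IVA12 and 0 in EL4, against 26.5% and 23.8% of all members. Its median log2 ratio was -0.35. The cytosolic ribosomal families Rpl and Rps had medians of -0.04 and 0.13. The largest families were Zfp (291 members, -0.09), Slc (179 members, -0.09), Tmem (135 members, -0.18) and Fam (89 members, 0.04). They held wide single differences, such as the transporters Slc6a13, with 80.0 FPKM in EL4 against 0.15 in IVA12, and Slc12a2, with 0.00477 FPKM in EL4 against 30.8 in IVA12.

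Other sequence features were searched in the coding sequences and read beside the background of 23.8% and 26.5%. The 19 members with a selenocysteine codon had 8 toward EL4 and 3 toward IVA12. Selenow had 116 FPKM in EL4 against 27.2 in IVA12, and Selenop, the plasma selenium carrier, was listed at 0 in EL4 and at 5.28 FPKM in IVA12. Genes with at least 3 zinc fingers of the C2H2 type counted 388 members with 18.8% toward EL4 and 26.0% toward IVA12. The 212 members with a dibasic carboxy-terminal signal had 19.8% and 29.7%. Of noncoding classes, the 173 lincRNA members had 37.6% toward EL4 and 37.0% toward IVA12, and the 124 antisense members 30.6% and 42.7%. The antisense members were low, with summed levels of 282 FPKM in EL4 and 285 FPKM in IVA12. Among all members whose higher FPKM was 1 to 2, the shares were 26.3% and 39.9%, and the classes were not matched for level. Antisense values also depend on the strand setting of the counting, which is not given in the sources used here. Gm4208 and Lncenc1 were the lincRNAs furthest toward EL4, with 191 against 0.0908 FPKM and 259.9 against 1.47 FPKM. Gm8730, a processed pseudogene, had 26.8 FPKM in EL4 against 631 in IVA12, and its value is uncertain because such a copy is near identical to its parent gene.

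By chromosome the medians ran from -0.38 to 0.36. Chromosome 11 had 352 of 921 members higher in IVA12 and 129 in EL4, and chromosome 9 had 232 of 610 and 102, with medians of -0.38 and -0.35, followed by chromosome 16 with -0.21. Chromosome 12 had 142 of 386 members higher in EL4 and 54 in IVA12, with a median of 0.36, followed by chromosome X with 0.27 and chromosome 18 with 0.23. The quartiles of every chromosome spanned 0.

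**Figure D5:**
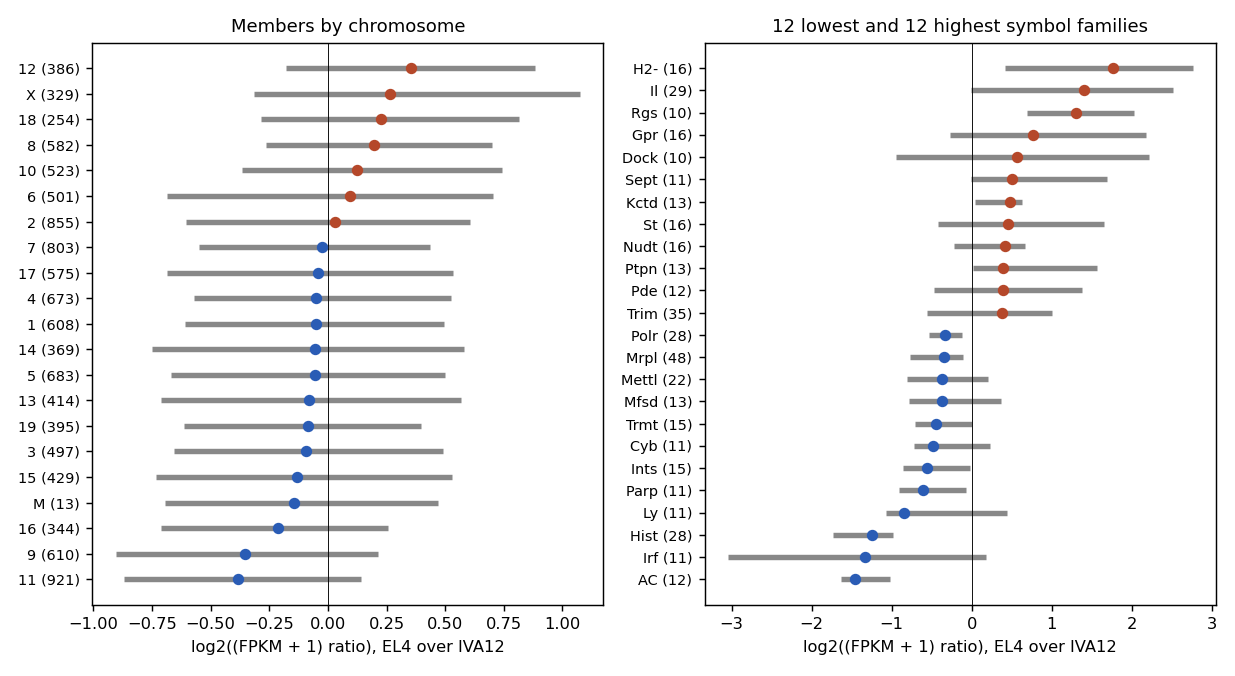
Median (point) and quartiles (grey bar) of the log2 ratio of EL4 over IVA12 for the members of each chromosome on the left and for the 12 lowest and 12 highest symbol families on the right, with the number of members in brackets. Every chromosome bar crosses 0, with medians from -0.38 (11) to 0.36 (12). The bars of several families, among them AC, Parp, Hist, Rgs and H2-, lie wholly on 1 side, and that of Hist follows mostly from the membership rule.

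Neighbouring members also lay in the same direction over stretches. A run was a series of at least 8 members in order along a chromosome that all passed 1.5-fold in 1 direction, and 23 runs were found, 9 toward EL4 and 14 toward IVA12. The longest held 20 genes on chromosome 13 from Hist1h2bn to Hist1h4c (chr13:21754123-23698454), of which 18 were Hist genes. As given above, Hist members other than Hist1h4i entered through IVA12 alone, so the direction of most of this run follows from the rule. A further run toward IVA12 on chromosome 13 began with Hist1h2bb, Hist1h3b and Hist1h4a, to which the same limit applies. The next longest run, on chromosome 14, held 15 genes from Ngdn to Tm9sf1 (chr14:55015454-55643806) with a median log2 ratio of -1.59, and it held Psme1, Psme2 and Irf9 of the lists above. A run of 14 genes on chromosome 5 from Khk to Krtcap3 (chr5:30921431-31253202) had -1.31, and a run of 12 genes on chromosome 6 from Ccdc91 to Bicd1 (chr6:147475828-149563329) had -1.49. Toward EL4 the longest run held 11 genes on chromosome X from Rbbp7 to Fancb (chrX:162760402-164997272) with a median of 1.68, and it included Ctps2. A run of 10 genes on chromosome 2 (chr2:121866970-122749475) held B2m, and a run of 9 genes on chromosome 10 (chr10:18318985-20281590) held Perp, Tnfaip3 and Ifngr1. The cause of these runs was not tested.

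Among members on no list and outside the signature genes (over 50 FPKM with a natural-log ratio past 3), the 10 furthest toward EL4 included Samsn1, an adaptor of lymphocytes, with 49.4 FPKM in EL4 against 0.00872 in IVA12, and Anxa1, an annexin, with 42.9 FPKM in EL4 against 0.0152 in IVA12. Cpeb1, which regulates cytoplasmic polyadenylation, had 41.4 FPKM in EL4 against 0.104 in IVA12, Slc30a4, a zinc transporter, had 39.4 FPKM in EL4 against 0.0649 in IVA12, and Retreg1, a receptor for ER-phagy, was at 40.7 FPKM in EL4 and listed at 0 in IVA12. The remaining genes of the 10 were 4930519L02Rik, Gpr171, C78197, Rgs13 and Mpp4, at 40.5 to 48.7 FPKM in EL4. C78197 is annotated as antisense. Toward IVA12 they included Alpl, an alkaline phosphatase, with 0.0154 FPKM in EL4 against 47.5 in IVA12. Gabarapl1, an autophagy protein of the ATG8 family, was listed at 0 in EL4 and at 45 FPKM in IVA12, and Sema4g had 0.0575 FPKM in EL4 against 37.1 in IVA12. Others of the 10 were 4921536K21Rik, Tmprss11c, Rhox2h, Adgrf3, Rpl39l and Tceal9, at 34.4 to 44.8 FPKM in IVA12.

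The shares past 1.5-fold were largest among the lowest genes, with no steady fall above 5 FPKM. Of the 882 members whose higher FPKM was 1 to 2, 26.3% were higher in EL4 and 39.9% in IVA12. Those past 1.5-fold in this group were below 1 FPKM in the other line, so its shares depend in part on the membership rule. The shares were 23.6% and 22.9% of the 4438 members at 5 to 20 FPKM. They were 22.4% and 25.7% of the 2969 members at 20 to 100 FPKM. Of the 627 members above 100 FPKM the shares were 24.6% and 24.2%. The pseudocount draws ratios of low genes toward 0, and 131 members had under 30 recovered counts in the line where they were higher. Recovered counts of some members may be too low, as the processing section gives, so this number may be too high.

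Most markers of other cell types were below 1 FPKM in both lines. Of 18 myeloid markers 3 were members, with summed levels of 4.41 FPKM in EL4 and 24.8 FPKM in IVA12, most of it Cd68, a lysosomal protein, and Csf1r, Adgre1 and Elane were listed at 0 in both. Of 12 epithelial markers 3 were members, all higher in IVA12, Epcam as above, Cldn4 listed at 0 in EL4 and at 7.16 FPKM in IVA12, and Muc1 at 0.0265 against 1.55 FPKM, while the keratins Krt8, Krt19, Krt5 and Krt14 were listed at 0 in both. Of 14 fibroblast and muscle markers the 2 members were Thy1 and Acta2, the latter with 50.8 FPKM in EL4 against 0.0888 in IVA12, and Col1a1, Col1a2 and Col3a1 were under 0.1 FPKM in both. Of 10 endothelial markers the members were Pecam1, with 11.8 FPKM in EL4 against 1.38 in IVA12, and Egfl7, with 1.01 FPKM in EL4 against 5.92 in IVA12, and of 12 red-cell and megakaryocyte markers only Gp9 was a member, listed at 0 in EL4 and at 2.83 FPKM in IVA12. The part of other cells in the results above was not tested.

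Among members, 37.3% share exonic bases with another annotated gene on either strand, and the counting of such reads is not given in the sources used here, so values of these genes are less certain. Genes named above with such overlap include Mzb1, Lat, Lck, Cd3e, Notch1, Hsp90b1, Erp29, Irf9 and Tk1.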

How the data were processed

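Total RNA of each line was sequenced as 1 stranded messenger RNA library. The authors aligned reads with STAR 2.5.1b to a combined human and mouse reference distributed with Cell Ranger 1.2.0 and counted genes with featureCounts 1.6.3. The deposited values are FPKM, and the strand setting of the counting is not given in the sources used here. Counts were recovered from FPKM, the library totals and gene lengths. The lengths behind the FPKM are not given in the sources used here. Thus 7564 members used the exon length of GENCODE M21 (mm10) and 3237 (30.0%) a solved length, the shortest that gave whole counts. Given these counts, the 95% intervals are exact Poisson for levels and exact binomial for ratios. Counts from a solved length are the smallest that fit, so they may be too low and their intervals too wide. Members had at least 1 FPKM in either line, ratios were taken on log2(FPKM + 1), and 1.5-fold was the threshold. No test was made, with 1 library per line. Coding sequences were read from GENCODE M21 transcripts.

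The members and gene lists were chosen with earlier results of these data known. In each list, family, sequence group and gene type named, the rule named the 2 members with the largest ratio toward each line, plus in lists the member with the highest mean level. The 6 highest, 6 lowest and 4 largest symbol families were named, with the 3 highest and 3 lowest chromosomes, the 10 genes furthest toward each line outside lists and signature genes, the 10 highest genes within 1.1-fold, and Thy1, Cd3d, Jchain and Mzb1. Every other gene, the stem-loop search and the runs were chosen after values were seen. Alternatives covered the pseudocount, the floor, scaling, gene types, the fold, overlapping genes and family size. Python 3.11.15, pandas 2.3.3, NumPy 2.4.6, SciPy 1.17.1, Biopython 1.88 and matplotlib 3.10.9 were used. Mx2, Flt3l, Pnp and Rian were not analysed here. Some genes that the rule names are not reported here.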

Additional observations from a re-analysis of the deposited data

Results flagged for a closer look

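The EL4 and IVA12 libraries were read for signal outside the mouse genes, for which there was no control library. In EL4, 8 human genes reached 1 FPKM, and in IVA12 38 did. In the libraries of the human lines, 5 of the mouse members reached 1 FPKM in Jurkat and 4 in TALL104, with at most 2.87 and 2.57 FPKM. These were Copg2, Eef1a1, Lars2, Rplp1, Rps26 and mt-Co1, in 1 or both of the human libraries. The cause was not tested.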

How the results depend on the processing

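No paired analysis was possible because each line had 1 library. Of the 49 list medians, 49 stayed within their counting intervals under each of the 3 scalings, 34 with either smaller pseudocount (0.1 or 0.01) and 47 with protein-coding genes only. Others moved further: 14 of 46 with at least 1 FPKM in both lines (beside 6 that turned direction), 18 of 48 with at least 5 FPKM in either line, 23 of 49 with any FPKM above 0 and 24 of 49 without overlapping genes. The counts moved most with the floor, the fold and overlap. Genes higher in EL4 numbered 1635 with at least 1 FPKM in both lines, 1654 at 2-fold, 678 at 4-fold and 1677 without overlapping genes, against 2568. Genes higher in IVA12 numbered 1749, 1766, 652 and 1811 in the same order, against 2866. Members numbered 16764 with any FPKM above 0 and 6775 without overlapping genes, and families with at least 5 members numbered 331 against 125. These follow from the number of genes kept or the fold asked. With at least 1 FPKM in both lines, 6 list medians that had been past 1.5-fold turned direction, to 0.024 for B-cell and plasma-cell factors, 0.51 for the B-cell receptor, -0.35 for homing, 0.23 for adhesion, 0.17 for Notch and -2.87 for the SLAM family, because genes near absent from 1 line leave the list. The SLAM value there is that of Slamf9 alone. The small median of the G1 list also passed 0 there, from -0.15 to 0.02, and is counted among those that moved. The same floor took the T-cell receptor median from 4.90 to 1.62, T-cell surface from 2.94 to 0.77, cytotoxic genes from 2.68 to 0.95, plasma-cell genes from -1.96 to -0.89 and cytokine receptors from 1.24 to 0.35. The pseudocount of 0.01 took the first and the last of these to 7.84 and 1.89. Without overlapping genes, medians that passed to the other side of 0 included the BCL2 family (0.27 to -2.06), class II MHC (-0.47 to 1.38) and early-response genes (-0.25 to 0.90), while class I MHC went from 1.40 to 0.51 and calcium genes from 0.02 to 0.72. Depth limits low genes, and 131 members had under 30 recovered counts in their higher line. That number may be too high, because some recovered counts may be too low.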
